A study of Mus musculus with 8 samples.

Results

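Before birth the lung makes fluid and does not clear it, and the genes of ion channels and pumps that move this fluid are described here in fetal mouse lungs whose trachea had been closed. The 9 genes were chosen by name, as members of the fluid transport pathway, and not by their values. They are *Scnn1a*, *Scnn1b* and *Scnn1g* (the subunits of the epithelial sodium channel, ENaC), *Atp1b1* (a subunit of the sodium pump), *Cftr*, *Slc12a2*, *Slc26a9* and *Ano1* (chloride transport), and *Aqp5* (a water channel). All 9 of 9 were found among the 55385 genes of the count files, and all passed the filter on low counts, as 21859 genes did.

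RNA of whole lungs of C57BL/6 mouse fetuses was sequenced at E18.5, 4 from control fetuses and 4 after tracheal occlusion (TO). The trachea of TO fetuses had been tied off at E16.5, through the uterine wall, with a silk suture that also took in a carotid artery and a jugular vein, and the dams had been given progesterone. The methods name no sham operation for the mouse controls, so the effects of the operation and of the occlusion cannot be told apart. Since the same suture took in trachea and vessels, its effects on them cannot be told apart either. Nothing in the labels says from how many litters the lungs came, so p-values measure the spread between these lungs alone. Control 1, 2 and 4 and TO 2, 3 and 4 were compared first, since the study's heat map of these data shows these 6 lungs, and control 3 and TO 1 were added after them.

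TO 1 held 270078 read pairs on genes and the other 7 libraries 22822261 to 35002061. A member was counted 3 to 100 times in TO 1 and 336 to 26751 times in the other lungs, so the values of TO 1 rest on few reads. Levels are read pairs normalized to the library's total on genes (CPM, the counts-per-million value of edgeR), scaled by the TMM method across all 8 libraries. Markers of alveolar type 2 cells summed to 6568 to 19305 CPM and those of type 1 cells to 1786 to 5082 CPM, so lung epithelium was present in every library. Heart muscle markers summed to 475 to 5871 CPM. Markers of stratified epithelium, which lines the esophagus, summed to 288 CPM in control 1, 338 in TO 1, 280 in TO 4 and 7.76 to 11.7 in the other 5. Their list includes *Krt5*, *Krt14* and *Trp63*, which also mark airway basal cells, and the source of this RNA was not tested.

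The fetal airway epithelium drives chloride into the lumen and water follows. Chloride enters the cell from the blood side through the cotransporter encoded by *Slc12a2* and leaves into the lumen through channels such as CFTR. Around birth the epithelium turns to absorption, in which sodium enters from the lumen through ENaC and is pumped out on the blood side by the sodium pump. Tracheal occlusion keeps the secreted fluid inside, and the question here is whether the RNA of these transporters differed between occluded and control lungs.

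Promoter sequence from RefSeq (GRCm38.p6) was at hand for 7 of the 9 genes, and 4 are printed to show how unlike the start regions are of genes that share a role. Shown are a pair of ENaC subunit genes that lie 96562 bases apart on the plus strand of chromosome 7, and 2 chloride channel genes. Each is the 250 bases before the start of transcription, 5′ to 3′ on the strand of the gene, with GC boxes (GGGCGG, either strand), CCAAT boxes (CCAAT, either strand) and TATA boxes (TATAAA, either strand) in capitals.
Scnn1g, chr7:121734229-121734478, plus strand: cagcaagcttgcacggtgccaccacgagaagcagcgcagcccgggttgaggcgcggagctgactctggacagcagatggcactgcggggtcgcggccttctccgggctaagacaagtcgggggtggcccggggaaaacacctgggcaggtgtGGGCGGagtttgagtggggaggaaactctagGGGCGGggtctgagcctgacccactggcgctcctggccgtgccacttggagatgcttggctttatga
Scnn1b, chr7:121864788-121865037, plus strand: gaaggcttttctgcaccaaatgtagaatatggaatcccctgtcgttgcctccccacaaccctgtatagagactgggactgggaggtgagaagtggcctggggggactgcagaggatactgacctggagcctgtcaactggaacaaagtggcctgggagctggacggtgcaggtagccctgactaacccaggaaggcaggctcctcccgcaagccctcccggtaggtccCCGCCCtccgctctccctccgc
Cftr, chr6:18170437-18170686, plus strand: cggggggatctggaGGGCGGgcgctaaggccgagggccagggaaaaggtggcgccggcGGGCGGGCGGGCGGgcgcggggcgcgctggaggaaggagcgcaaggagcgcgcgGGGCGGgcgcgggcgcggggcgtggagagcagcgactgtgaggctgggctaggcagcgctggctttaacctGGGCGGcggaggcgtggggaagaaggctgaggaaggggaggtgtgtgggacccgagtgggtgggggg
Slc26a9, chr1:131743772-131744021, plus strand: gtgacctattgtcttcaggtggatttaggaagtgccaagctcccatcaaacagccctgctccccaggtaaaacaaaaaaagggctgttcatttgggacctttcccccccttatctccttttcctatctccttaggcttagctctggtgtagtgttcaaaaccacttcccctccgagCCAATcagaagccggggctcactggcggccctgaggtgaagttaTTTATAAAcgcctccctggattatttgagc

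The *Cftr* window was 76.4% G and C and held 6 GC boxes, of which 3 overlapped in a run. The windows of *Scnn1g* and *Scnn1b* held 2 and 1. *Slc26a9* had none, and was the 1 window of the 7 with a TATA box, whose capitals run together from overlapping matches on both strands between 30 and 23 bases before the start, and it had a CCAAT box 74 bases before it. GC boxes stood in 6 of the 7 members' windows and in 32.7% of all 32851 promoter windows of this length, CCAAT boxes in 2 of 7 and 33.8%, and TATA boxes in 1 of 7 and 12.4%. The letters GGAATG, bound by TEAD factors, stood in 0 of 7 windows against 12.6%, and TGTTCT, a half-site of the glucocorticoid receptor, in 0 of 7 against 16.1%. These are matches of letters only.

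None of the 9 genes differed between TO and control lungs at an adjusted p under 0.1 in edgeR's quasi-likelihood test, and no gene of the whole table did (0 of 21859, 0%). DESeq2 called 0 members and 44 of the 18421 genes to which it gave an adjusted p (0.239%). At an unadjusted p under 0.05, 0 of 9 members and 1123 of all genes (5.14%) were counted by edgeR. In every member the ranges of the groups overlapped, whereas 10.9% of all genes had groups that did not overlap. The log2 fold change was above 0 for 7 members and below 0 for 2. Over the 9 members its median was 0.19, beside −0.0045 for all genes, of which 49.3% were above 0. Beneath these group values, the TO lungs did not move together, as their single values show.

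Among the genes of sodium absorption, *Scnn1a* (ENSMUSG00000030340.16, chr6:125320659-125344943, plus strand) encodes the subunit without which ENaC hardly conducts, and mice that lack it cannot clear lung fluid at birth. Its level was 155 CPM in control 1, 198 in control 2, 279 in control 3 and 179 in control 4. In TO lungs it was 69.0 CPM in TO 1, 247 in TO 2, 212 in TO 3 and 112 in TO 4. TO 2 and TO 3 stood above the 3 controls first compared and TO 4 below them, with control 3 above all. The means over 6 lungs were 177 ± 21.7 CPM in control and 190.2 ± 70.3 in TO (SD, n = 3 each), a log2 fold change of 0.10 (SE 0.25, edgeR adjusted p = 0.98).

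*Scnn1b* (ENSMUSG00000030873.9, chr7:121865038-121918514, plus strand) encodes the beta subunit. Its controls lay at 21.6, 23.7, 36.6 and 21.99 CPM in controls 1 to 4, and its TO lungs at 10.3, 23.1, 30.1 and 14.3 CPM in TO 1 to 4. TO 1 and TO 4 were the lowest of the 8 lungs and control 3 was the highest. The 6-lung means, 22.4 ± 1.13 and 22.5 ± 7.91 CPM (SD, n = 3 each), gave a log2 fold change of −0.0028 (SE 0.24, edgeR adjusted p = 0.999), whose 95% interval ran from −0.54 to 0.54.

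The gamma subunit gene *Scnn1g* (ENSMUSG00000000216.8, chr7:121734479-121768475, plus strand) was measured at 53.6, 53.3, 72.5 and 57.4 CPM in controls 1 to 4. In TO 1 to 4 it was measured at 41.4, 81.2, 55.2 and 40.8 CPM. Here TO 2 was the highest of all 8 lungs, while TO 3 lay among the controls and TO 1 and TO 4 lay below them. Control averaged 54.8 ± 2.28 CPM and TO 59.1 ± 20.5 (SD, n = 3 each), a log2 fold change of 0.10 (SE 0.22, edgeR adjusted p = 0.97).

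Per kilobase of exon, the ENaC subunits kept one order in all 8 lungs, with *Scnn1a* the most abundant, *Scnn1g* next and *Scnn1b* the least. In the 7 deep libraries *Scnn1a* stood at 1.98 to 2.79 times the level of *Scnn1g* per kilobase, and *Scnn1b* at 0.323 to 0.619 times. The lowest and the highest *Scnn1b* share both came from TO lungs, 0.323 in TO 2 and 0.619 in TO 3, around the 0.435 to 0.574 of the 4 controls. For both ratios the groups overlapped.

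*Atp1b1* (ENSMUSG00000026576.12, chr1:164437109-164458355, minus strand) encodes the beta 1 subunit, which brings the sodium pump to the membrane. It was counted at 450.0, 414, 886 and 515 CPM in controls 1 to 4 and at 345, 536, 699.6 and 455 CPM in TO 1 to 4. TO 2 and TO 3 exceeded the 3 first controls and TO 4 lay between them, so that *Atp1b1* was the 1 member not lowest in TO 4 among the deep libraries. The 6-lung means were 459.7 ± 51.2 CPM in control and 563.5 ± 125 in TO (SD, n = 3 each), a log2 fold change of 0.29 (SE 0.16, edgeR adjusted p = 0.91). Part of *Atp1b1* lies opposite *Nme7* on the other strand, and the counts do not use strand.

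**Figure D1:**
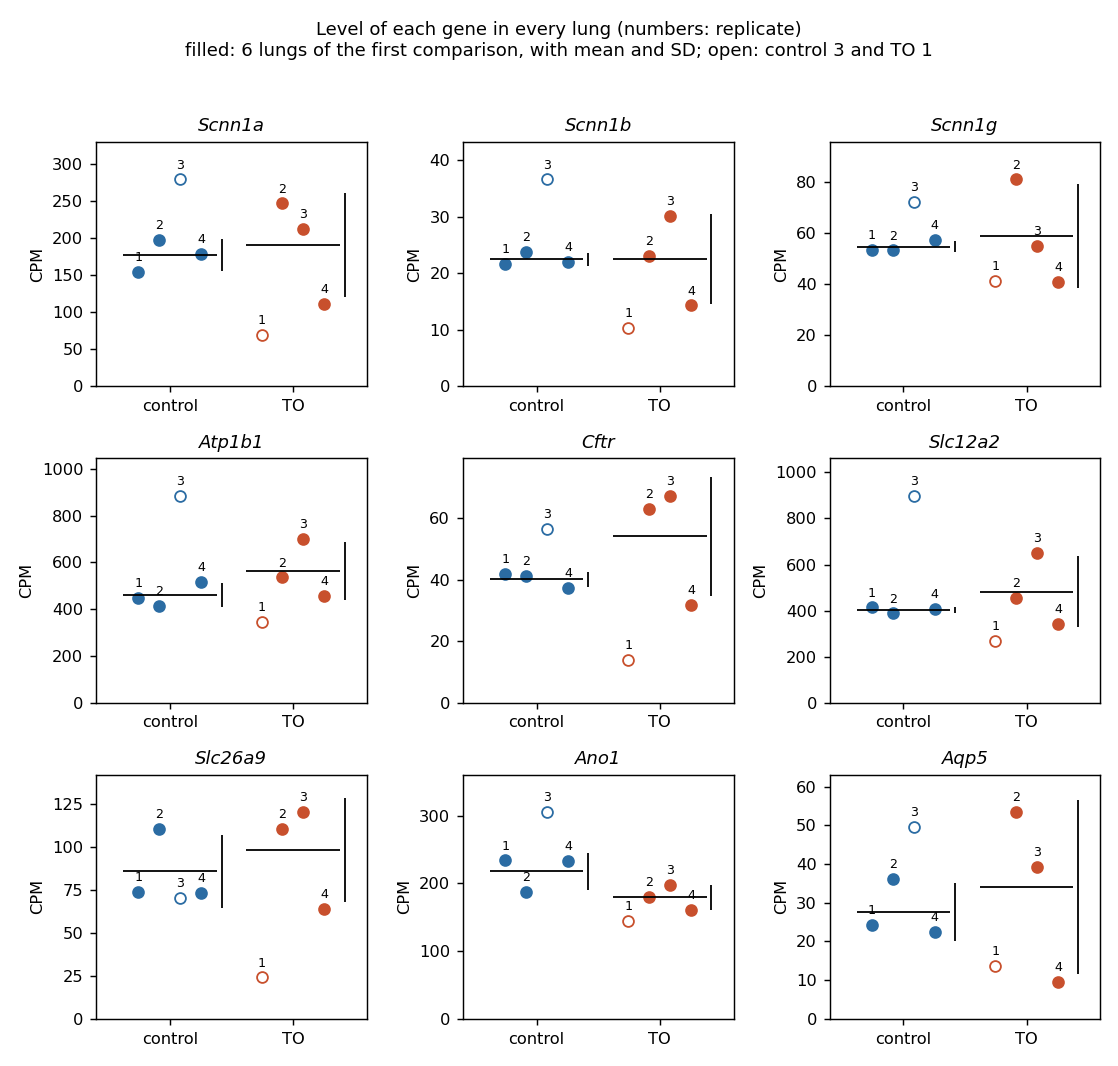
Level of each of the 9 genes in every lung, in CPM on axes that start at 0, with the replicate number above each point. Filled points are the 6 lungs first compared, with their mean (line) and SD (bar), and open points are control 3 and TO 1. TO 4 sits below the filled control points in every panel but *Atp1b1*, while TO 2 and TO 3 sit above them in most, as for *Cftr* at 63.1 and 67.4 CPM.

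Of the genes of chloride secretion, *Cftr* (ENSMUSG00000041301.15, chr6:18170687-18322768, plus strand) encodes the chloride and bicarbonate channel that is opened through cyclic AMP and is mutated in cystic fibrosis. Its level was 41.8, 41.1, 56.5 and 37.4 CPM in controls 1 to 4. In TO 2 and TO 3 it was 63.1 and 67.4 CPM, above all 4 controls, whereas it was 31.8 CPM in TO 4 and 13.8 CPM, from 4 read pairs, in TO 1, below all of them. The mean was 40.1 ± 2.38 CPM in control and 54.1 ± 19.4 in TO (SD, n = 3 each), the largest log2 fold change of the 9 at 0.43 (SE 0.24, edgeR adjusted p = 0.91). Without TO 4 it was 0.70 (SE 0.13, edgeR adjusted p = 0.0907), past the threshold of 0.1, the 1 of 9 members called in that fit of 5 lungs, which called 144 of 20801 genes (0.692%). Over the other settings tried, its adjusted p ran from 0.7775 to 1. *Cftr* overlaps *Gm15592* on the opposite strand.

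*Slc12a2* (ENSMUSG00000024597.11, chr18:57878678-57946821, plus strand) encodes the NKCC1 cotransporter, which loads the cell with chloride from the blood side. Controls 1, 2 and 4 lay close together at 414, 388 and 406 CPM, and control 3 was far above at 899 CPM. TO 1 to 4 gave 269, 456, 649 and 341.5 CPM, with TO 2 and TO 3 above and TO 1 and TO 4 below the 3 close controls. The 6-lung means were 402.5 ± 13.4 and 482 ± 155 CPM (SD, n = 3 each), a log2 fold change of 0.26 (SE 0.20, edgeR adjusted p = 0.91). With control 3 added, the value was −0.13 (SE 0.32, edgeR adjusted p = 0.9998).

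The epithelial chloride channel gene *Slc26a9* (ENSMUSG00000042268.10, chr1:131744022-131771504, plus strand) was the member in which a control other than 3 stood out. Control 2 had 110.6 CPM and controls 1, 3 and 4 had 73.9, 70.5 and 73.4 CPM. TO 2 and TO 3 had 110.5 and 120.4 CPM, TO 4 had 63.9 CPM and TO 1 24.1 CPM. TO 2 was thus level with control 2, and only TO 3 exceeded every control. The means were 86.0 ± 21.3 CPM in control and 98.3 ± 30.2 in TO (SD, n = 3 each), with a log2 fold change of 0.19 (SE 0.24, edgeR adjusted p = 0.95).

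*Ano1* (ENSMUSG00000031075.19, chr7:144588549-144751974, minus strand) encodes a calcium-activated chloride channel that is found in airway epithelium and also in smooth muscle. It was the member whose TO lungs lay lowest against control, with 234, 187, 305 and 233 CPM in controls 1 to 4 and 145, 179, 198 and 161 CPM in TO 1 to 4. The groups met only at control 2, which TO 3 exceeded. Over 6 lungs the means were 218 ± 26.9 and 179 ± 18.2 CPM (SD, n = 3 each), a log2 fold change of −0.28 (SE 0.13, edgeR adjusted p = 0.91, unadjusted p = 0.0532). Over all 8 lungs the log2 fold change was −0.47 (SE 0.16) with an unadjusted p of 0.0147 in edgeR and an adjusted p of 1, and 2.35% of all genes had an unadjusted p under 0.05 there. Summed smooth muscle markers were 705 to 975 CPM in the 3 first controls and 657 to 1231 CPM in TO 2 to 4, with TO 4 and control 3 (1153 CPM) the highest, and their part in the *Ano1* values was not tested.

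Water passes the distal epithelium in part through aquaporin 5, which sits in the apical membrane of alveolar type 1 cells. *Aqp5* (ENSMUSG00000044217.17, chr15:99590782-99594829, plus strand) was measured at 24.2, 36.2, 49.6 and 22.4 CPM in controls 1 to 4 and at 13.8, 53.4, 39.3 and 9.54 CPM in TO 1 to 4. The span from TO 4 to TO 2 was 5.60-fold, the widest of the 9 genes over the 7 deep libraries, in which the other 8 spanned 1.89-fold to 2.63-fold. The 6-lung means of 27.6 ± 7.47 and 34.1 ± 22.4 CPM (SD, n = 3 each) gave a log2 fold change of 0.30 (SE 0.49, edgeR adjusted p = 0.97) and a 95% interval from −0.81 to 1.40, the widest of the 9. TO 2 and TO 4 lay on opposite sides of the 4 controls.

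Direction depended on which lungs were compared. With control 3 added the median log2 fold change of the 9 members was −0.0071, and with TO 1 added as well it was −0.14, while 0 members were called in either fit. In those fits 0 of 22539 and 0 of 22545 genes were called by edgeR at an adjusted p under 0.1 (0% and 0%). *Scnn1a*, *Scnn1g*, *Slc12a2* and *Atp1b1* had a log2 fold change above 0 in 6 lungs and below 0 in 7 and in 8. *Cftr* and *Slc26a9* stayed above 0, at 0.15 and 0.080 with all 8, and *Ano1* and *Scnn1b* below 0, at −0.47 and −0.28. Without TO 4, 8 of the 9 were above 0, and 6 of them had an unadjusted p under 0.05, beside 2217 of the 20801 genes tested in that fit (10.7%), or 5.41% when those higher in TO alone are counted. Without TO 2, the values of *Scnn1a* (−0.13), *Scnn1g* (−0.19) and *Aqp5* (−0.19) were below 0, as that of *Slc12a2* (−0.0020) was without TO 3, while that of *Scnn1b* lay above 0 without control 2 (0.047) or without TO 4 (0.25).

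**Figure D2:**
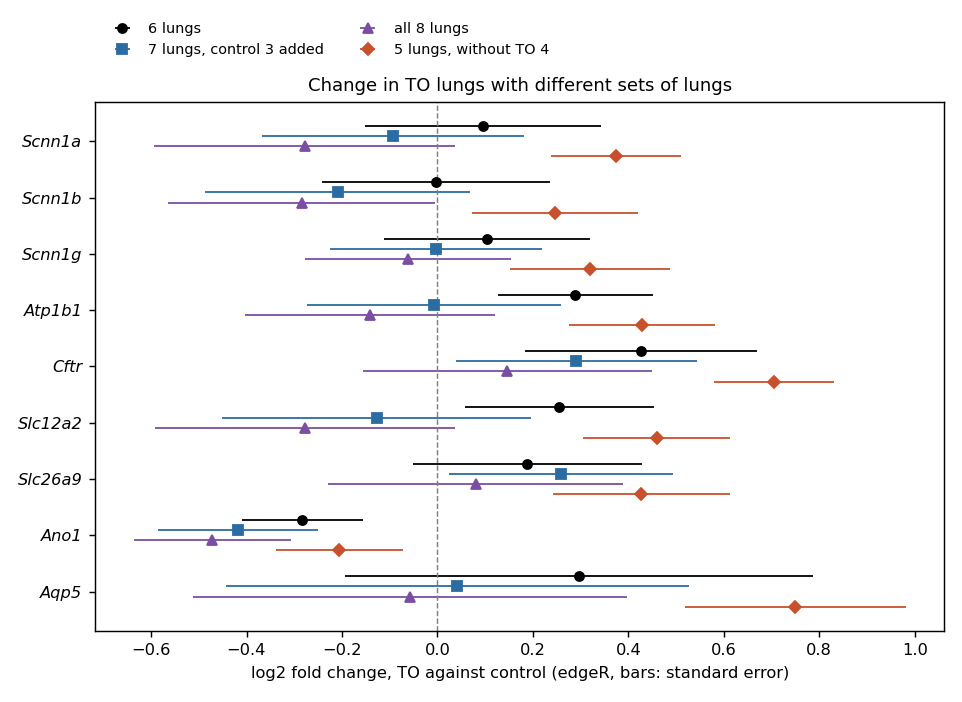
Log2 fold change of each gene, TO against control, with the standard error of the edgeR fit, for 4 sets of lungs. The black points of the 6 lungs lie between −0.28 and 0.43, the purple points of all 8 lungs lie to their left for every gene, and the orange points of the fit without TO 4 lie to their right, with *Cftr* at 0.70.

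Set against the 3 first controls, each further lung was on 1 side for most members. TO 2 stood above all 3 for 6 members and TO 3 for 7, while TO 4 stood below all 3 for 8. Control 3 stood above them for 8, and TO 1 below them for 9 of 9. Among the 7 deep libraries TO 4 was lowest for 8 of 9 members, beside 16.0% of the 8078 genes tested whose mean level lay within the members' range of 22.5 to 512 CPM. Control 3 was highest for 5 of 9, beside 30.1% of those genes. The remaining highest values were those of TO 2 for *Scnn1g* and *Aqp5* and of TO 3 for *Cftr* and *Slc26a9*. These shares describe single libraries, and the members share cells and lungs.

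Spread within the groups differed too. On the log2 scale the SD over 3 TO lungs was larger than over 3 control lungs for 8 of 9 members, all but *Ano1*, and the median SD was 0.497 in TO and 0.159 in control. Of the 8078 genes of like level, 62.1% had the larger SD in TO, with medians of 0.164 and 0.128. *Slc12a2* had the largest ratio, with SDs of 0.464 in TO and 0.0483 in control. Control 3 and TO 1 are not in these SDs. With control 3 added, the SD over 4 controls was 248 CPM for *Slc12a2* and 217 CPM for *Atp1b1*. Over TO 2 to 4 it was 155 and 125 CPM, so for these genes the control SD was then the larger, as for *Ano1*. The other members kept the larger SD in TO.

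Some markers shared part of the members' order of lungs. Summed alveolar type 1 markers were 3322 to 3880 CPM in the 3 first controls, 5082 CPM in control 3, 4357 in TO 2, 3848 in TO 3, 2421 in TO 4 and 1786 in TO 1. Type 2 markers were highest in TO 2 (19305 CPM) and lowest in TO 1 (6568 CPM) and TO 4 (8784 CPM). Control 3 had 11412 CPM of type 2 markers, within the 9530 to 15758 CPM of the 3 first controls. Epithelial markers not particular to one lung cell type, such as *Epcam* and *Cdh1*, were lower in TO for 10 of 10 genes, 4 of them with an unadjusted edgeR p under 0.05, and summed to 2379 to 2922 CPM in the 4 controls and 2046 to 2345 CPM in TO 2 to 4. Leukocyte markers were higher in TO for 6 of the 6 tested, all with an unadjusted edgeR p under 0.05. None was called by edgeR and 1 was called by DESeq2. They summed to 169 to 238 CPM in the 3 first controls, 284 CPM in control 3 and 317 to 401 CPM in TO 2 to 4. In RNA of whole lung, fewer cells of a type and less RNA per cell cannot be told apart.

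Each member was also set against these sums, with no test. Relative to the general epithelial markers, 8 of 9 members were higher in TO, with a median difference of 0.30 on the log2 scale over the 6 lungs. That sum was itself lower in TO 2 to 4 than in every control, so a gene of unchanged CPM would also come out higher here. The groups did not overlap for *Atp1b1*, whose difference was 0.53. TO 4 was then lowest for 3 members in place of 8. Relative to the type 1 markers, 7 of 9 were higher in TO with a median of 0.095. The groups did not overlap for *Cftr* at a difference of 0.40, and TO 4 was lowest for *Aqp5* alone. The share of all genes without overlap on these relative scales was not worked out, so *Atp1b1* and *Cftr* cannot be set against it. The range of *Scnn1a* over the 7 deep libraries was 1.32 on the log2 scale, and 0.34 relative to type 1 markers. *Slc26a9* went more closely with type 2 markers, with a range of 0.49 relative to them and 0.91 by itself. Relative to type 2 markers 3 of 9 members were higher in TO and 6 lower, with a median of −0.14, so the sign of the group difference turned with the marker list.

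**Figure D3:**
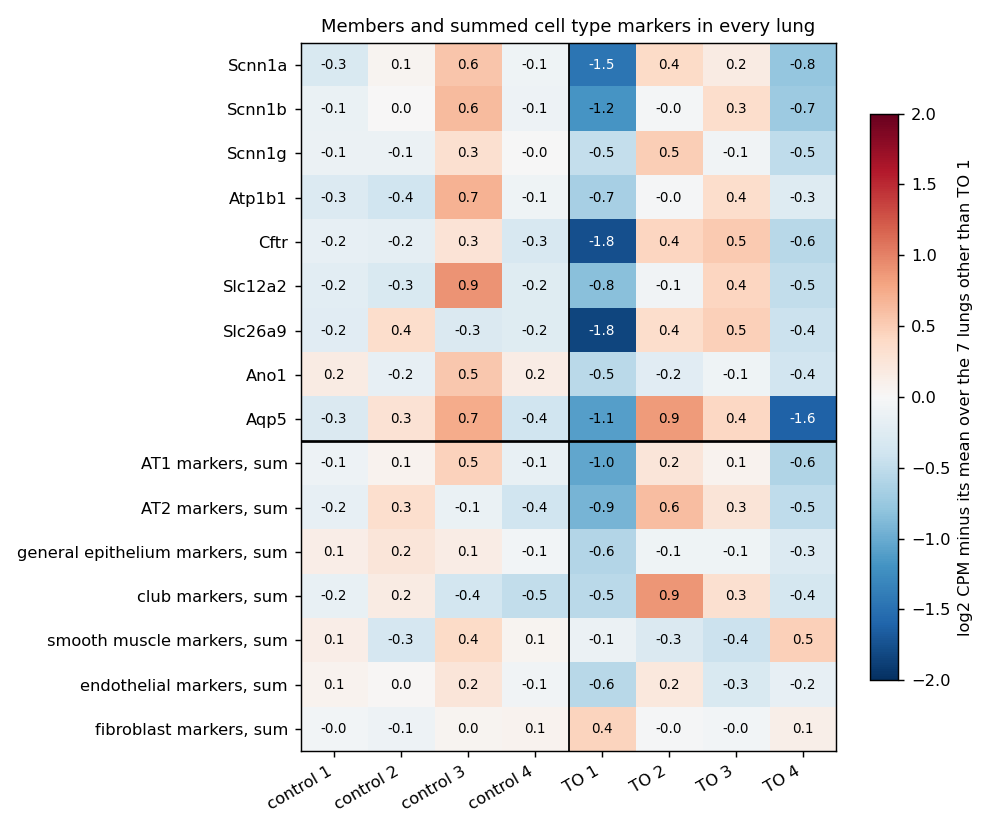
Members (above the black line) and summed marker genes of cell types (below it) in every lung, as log2 CPM minus the mean over the 7 lungs other than TO 1. Red is above and blue below that mean. The columns of TO 1 and TO 4 are blue for all members, the column of control 3 is red for 8 of 9, and the row of type 1 markers has the same colors in those 3 columns.

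Per kilobase of exon, which allows levels of different genes to be compared, *Atp1b1* was the most abundant at 166 ± 33.2 CPM per kilobase (SD over the 6 lungs, n = 6). Next came *Scnn1a* at 44.5, *Slc12a2* at 40.5 and *Ano1* at 31.8 CPM per kilobase. *Scnn1g* and *Slc26a9* followed at 19.0 and 17.6, *Aqp5* at 11.9, *Scnn1b* at 8.53, and *Cftr* was last at 6.06 CPM per kilobase. The 6 lungs' values of *Atp1b1* and *Scnn1a* did not overlap, and those of all other neighbors in the order did. With the length of the longest transcript in place of all exons, *Slc12a2* came before *Scnn1a* and *Slc26a9* before *Scnn1g*.

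**Figure D4:**
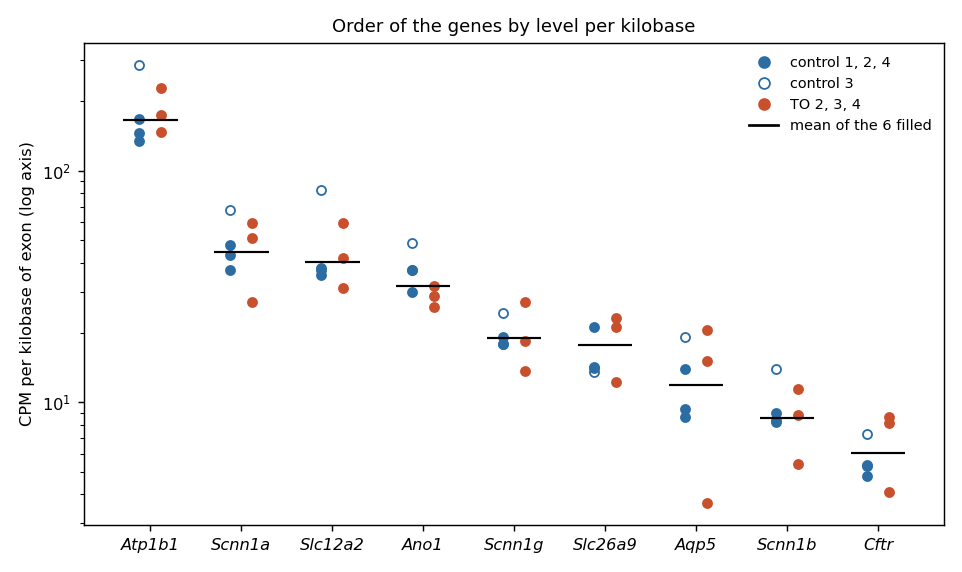
Level of each gene per kilobase of exon, in order of the mean over the 6 lungs first compared (black line), on a log axis. Points are lungs, blue for control (open for control 3) and orange for TO 2 to 4. *Atp1b1* stands apart at 166 CPM per kilobase, and each further gene overlaps the next.

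Levels of some members were compared with each other within each lung in the same way. The RNA is of whole lung, so the genes of a ratio need not come from one cell type. *Slc12a2* stood at 0.212 to 0.286 times the level of *Atp1b1* per kilobase over the 7 deep libraries, a 1.35-fold range, although each of these genes by itself ranged 2.63-fold and 2.14-fold. Both encode proteins of the basolateral membrane. *Scnn1a* stood at 5.92 to 9.30 times the level of *Cftr*, with 6.96 to 9.30 in the 4 controls and 5.92 to 7.35 in TO 2 to 4. The ratio of *Ano1* to *Cftr* was 5.65 to 7.75 in the 4 controls, 3.54 in TO 2, 3.65 in TO 3 and 6.31 in TO 4, so that TO 2 and TO 3 lay below and TO 4 within the controls. For all 7 ratios examined the groups overlapped.

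The genes closest to a member in pattern over the 7 deep libraries were sought for the 3 members of widest range, by the root mean square difference of centered log2 CPM over 12410 genes. For *Aqp5* the closest was *Rtkn2*, another marker of type 1 cells, at a difference of 0.273, then *2610028H24Rik* at 0.306 and *Wnt3a*, a Wnt ligand, at 0.323. *Rtkn2* was highest in TO 2 at 189 CPM and lowest of the deep libraries in TO 4 at 34.5 CPM. For *Slc12a2* the closest were *Wwp1*, a ubiquitin ligase, at 0.0441, *Slco3a1*, an organic anion transporter, at 0.0713 and *Tor3a* at 0.0980. For *Scnn1b* they were *Vgll3*, a cofactor of TEAD factors, at 0.0897, *Trpm6*, a magnesium channel, at 0.0953 and *Tmem37* at 0.0954. *Wwp1* was lowest of the deep libraries in TO 4 at 92.0 CPM and highest in control 3 at 241 CPM, as *Slc12a2* was.

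Other genes of fluid transport were taken from 6 lists of 87 genes, of which 78 passed the filter on low counts. Of these, 57 had a higher and 21 a lower mean in TO (median log2 fold change 0.17), and 0 were called by edgeR or DESeq2. An unadjusted edgeR p under 0.05 was reached by 9, all higher in TO, beside 3.07% of all genes higher and 2.07% lower. The groups did not overlap for 7 higher and 1 lower, beside 5.10% and 5.82% of all genes.

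Among 12 subunits and regulators of the sodium pump, 9 were higher and 3 lower in TO, with a median of 0.31. *Atp1b3*, a beta subunit, had a log2 fold change of −0.11 (SE 0.12). *Fxyd1*, a modulator of the pump in muscle, had one of 0.57 (SE 0.22, edgeR unadjusted p = 0.0276, adjusted p = 0.91). *Fxyd1* was 13.4 to 19.7 CPM in the 4 controls and 19.5, 22.6 and 29.7 CPM in TO 2, 3 and 4. Heart muscle markers summed to 475 to 3785 CPM in the 3 first controls, 4816 in control 3 and 2457 to 4759 in TO 2 to 4, and their part in the *Fxyd1* values was not tested.

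Of 21 tested regulators of ENaC, 16 were higher and 5 lower, with a median of 0.083. *Prss8*, a membrane protease that cleaves and activates the channel, had a log2 fold change of −0.070 (SE 0.16) and *Spint2*, a protease inhibitor, one of −0.19 (SE 0.15). *Furin*, the protease that cleaves ENaC on its way to the membrane, was 134, 141 and 145 CPM in the first controls and 168, 175 and 155 CPM in TO 2 to 4, at a log2 fold change of 0.24 (SE 0.099, edgeR adjusted p = 0.91). Control 3 had 173 CPM, within the TO range. *Bpifa1*, a secreted airway protein that limits ENaC, was 0 CPM in controls 1 to 3 and 0.121 in control 4, against 1.42, 1.16 and 0.199 CPM in TO 2, 3 and 4, at or near 0 in control lungs, so no fold is given (edgeR adjusted p = 0.91).

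Of 18 tested chloride and bicarbonate channels and transporters, 14 were higher and 4 lower in TO, with a median of 0.15 and none at an unadjusted p under 0.05. The most abundant per kilobase, *Slc9a3r1*, a scaffold that binds CFTR, and *Slc12a4*, a potassium chloride cotransporter, had log2 fold changes of −0.062 (SE 0.16) and −0.050 (SE 0.11).

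Of 9 tested potassium channel genes of secreting epithelia, 7 were higher and 2 lower, with a median of 0.29. *Kcnj15*, an inward rectifier, was 56.2, 68.5 and 56.7 CPM in controls 1, 2 and 4 and 142 CPM in control 3, against 114, 161 and 55.3 CPM in TO 2, 3 and 4. Its log2 fold change was 0.86 (SE 0.31, edgeR adjusted p = 0.91), and its lungs stood in the order of most members, with TO 2, TO 3 and control 3 high and TO 4 low. *Kcne2*, an accessory subunit, was 2.65 to 6.43 CPM in the 4 controls and 13.0, 11.9 and 5.93 CPM in TO 2 to 4 (log2 fold change 1.195, SE 0.38, edgeR adjusted p = 0.91). *Kcnk1*, a leak channel, had a log2 fold change of 0.062 (SE 0.16). *Kcnn4*, a calcium-activated channel, was the 1 gene of the lists whose TO lungs all lay below the first controls, and was named after its values were seen. It was 1.88 to 2.19 CPM in the controls and 0.463 to 1.86 CPM in TO 2 to 4.

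Of 7 tested aquaporin genes other than *Aqp5*, 5 were higher and 2 lower, with a median of 0.51. *Aqp1*, the water channel of lung vessels, was 243 to 274 CPM in the 4 controls and 368, 201 and 222 CPM in TO 2, 3 and 4, at a log2 fold change of 0.094 (SE 0.21). *Aqp4* had a log2 fold change of 0.51 (SE 0.24), and *Aqp3*, found in airway basal cells, was 1.2 to 8.91 CPM in the controls and 4.17 to 8.30 CPM in TO 2 to 4 (log2 fold change 1.08, SE 0.48, edgeR adjusted p = 0.91).

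Of 11 other sodium and proton transporters, 6 were higher and 5 lower, with a median of 0.021. *Slc34a2*, the phosphate cotransporter of type 2 cells, was 981, 1341 and 1148 CPM in the first controls, 1747 CPM in control 3 and 2379, 2257 and 947 CPM in TO 2, 3 and 4, at a log2 fold change of 0.68 (SE 0.30, edgeR adjusted p = 0.91). *Slc5a1*, a sodium glucose cotransporter, was 0.714 to 1.71 CPM in the controls and 1.16 to 4.79 CPM in TO 2 to 4, and *Slc6a14*, an amino acid transporter, had a log2 fold change of 0.021 (SE 0.21). Without TO 4, *Slc34a2* (1.005, adjusted p = 0.0664) and *Kcnj15* (1.19, adjusted p = 0.0505) passed the threshold in edgeR beside *Cftr*, as log2 fold changes.

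**Figure D5:**
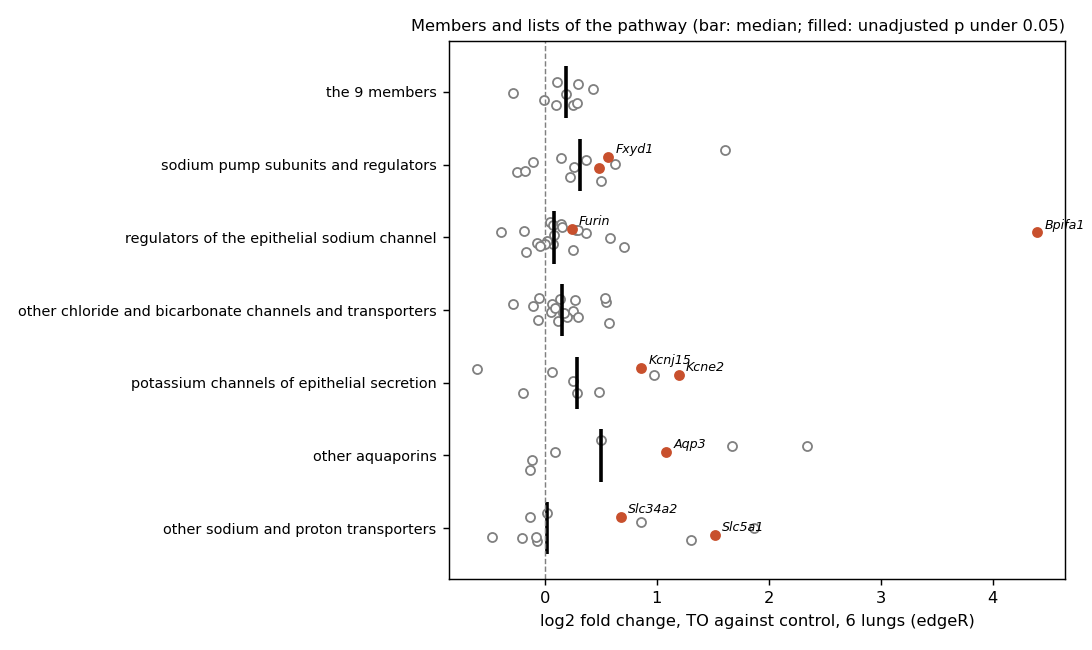
Log2 fold change of the 9 members and of each list of the pathway, TO against control over the 6 lungs first compared. Points are genes, filled where the unadjusted edgeR p was under 0.05, and bars are medians. The members lie between −0.28 and 0.43 around a median of 0.19, and the 9 filled points all lie to the right of 0.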

How the data were processed

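RNA of 8 whole lungs was made into Nextera XT libraries and sequenced as read pairs. The authors deposited unnormalized counts, each the number of read pairs on a gene, which they made with STAR on GRCm38 (mm10 in the submitters' processing notes, which also name DESeq2). The version of STAR and the annotation are not given in the sources used here. Of 55385 gene IDs, 54487 are identical with GENCODE M21, which gave symbols, coordinates and exon lengths. Counts without regard to strand were used, since 49.9% to 50.1% of pairs fell on either strand, and reads on overlapping genes are left out of them. Rows that name no gene, with 23.1% to 27.1% of read pairs, were left out.

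A gene was tested where 3 or more libraries had 5 or more reads of it, by edgeR 4.0.16 (R 4.3.3; TMM, quasi-likelihood) with Benjamini-Hochberg adjustment over all of them and a threshold of 0.1. DESeq2 1.42.0 and limma 3.58.1 (voom) were alternatives, with other scaling, filters, strands, sets of lungs and blocks, and the fits were tested on simulated data. Log2 CPM used a prior count of 2. Members, lists and tests were chosen with earlier results of these data known. Named from each list were the 2 genes most abundant per kilobase and those with an unadjusted p under 0.05. Some genes that this rule takes in are not reported here, and stay in the counts. The labels give no batch. Reads carry no molecular identifiers, so a count's error is larger than its counting error.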

Additional observations from a re-analysis of the deposited data

Results flagged for a closer look

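Among the 18 groups of 4 lungs (9 genes in control and in TO), 3 held a lung that stood apart from the other 3 by more than the 95% critical value of Dixon's test for 4 values, where chance gives about 1 in 20. Control 3 stood apart for *Slc12a2*, at 899 CPM against 388 to 414 CPM in the other controls, and for *Scnn1b*, at 36.6 CPM against 21.6 to 23.7 CPM. Control 2 stood apart for *Slc26a9*, at 110.6 CPM against 70.5 to 73.9 CPM. In control 3 the summed type 1 markers were the highest of the 8 lungs (5082 CPM), and in control 2 the type 2 markers were the highest of the controls (15758 CPM). The part of either in these values was not tested.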

How the results depend on the processing

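Of the 9 log2 fold changes, that of *Ano1* kept its direction under all 20 alternatives and that of *Cftr* under all 20. The others turned under some, none of them called, and the cause was not tested. All 8 lungs gave −0.28 for *Scnn1a*, −0.062 for *Scnn1g*, −0.28 for *Slc12a2*, −0.14 for *Atp1b1* and −0.057 for *Aqp5*. The 7 lungs without TO 1 gave −0.093 for *Scnn1a*, −0.0034 for *Scnn1g*, −0.13 for *Slc12a2* and −0.0071 for *Atp1b1*. *Scnn1b* was 0.012 with DESeq2, 0.012 with its size factors, 0.0073 with 5 reads in every library, 0.13 on 1 strand and 0.19 relative to general epithelial markers. *Aqp5* was −0.054 with voom, and *Scnn1g* −0.011 on 1 strand. Leaving out each lung in turn gave −0.13 to 0.37 for *Scnn1a*, −0.25 to 0.25 for *Scnn1b*, −0.19 to 0.32 for *Scnn1g*, −0.0020 to 0.46 for *Slc12a2* and −0.19 to 0.75 for *Aqp5*. Genes called numbered 0 in edgeR, 44 with DESeq2, 40 without a filter, and 0 to 144 with 1 lung left out, the highest without TO 4 and 52 without control 4. Members called were 0 to 1 and list genes 0 to 3, the highest without TO 4.

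Correlations of deviations between same-numbered lungs, over all 8, were 0.052, 0.13, 0.16 and 0.071 for numbers 1 to 4. Between a control and a TO lung of different numbers they ran from −0.16 to 0.097. Over the 6 lungs first compared they were 0.10 and 0.048 for numbers 2 and 4, and −0.17 to 0.13 between different numbers. The labels do not say whether lungs of one number belong together, and this was not tested. A block by number called 219 genes and 1 list gene (*Slc8a1*) in 6 lungs and 3 genes in 8. Among those 6 lungs, control 1 and TO 3 have no lung of the same number in the other group. The block takes up each of them, so the log2 fold changes of that fit come from control 2, control 4, TO 2 and TO 4 alone. Its 219 calls and its signs are therefore not a result of all 6 lungs. With the replicate block in 6 lungs, *Scnn1a* was −0.18, *Slc12a2* −0.0041, *Slc26a9* −0.097 and *Aqp5* −0.30. With it in 8, *Scnn1a* was −0.40, *Scnn1g* −0.13, *Slc12a2* −0.26, *Slc26a9* −0.0087, *Atp1b1* −0.13 and *Aqp5* −0.36.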

Other observations

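Markers of further cell types are given by their sums. Of 6 markers of ionocytes, airway cells rich in CFTR, 2 passed the filter on low counts, and their log2 fold changes had opposite signs, 0.62 (SE 0.33) for *Atp6v1c2* and −0.23 (SE 0.64) for *Atp6v0d2*. *Foxi1*, which defines these cells, was at 0 in 7 of the 8 lungs and counted once in TO 3. *Atp6v1c2* held nearly all of the list's sum, with 33.4 to 57.9 CPM in the 4 controls and 82.5, 92.9 and 35.4 CPM in TO 2, 3 and 4, so the sum does not speak for ionocytes. Club cell markers were higher in TO for 6 of 6 genes, with sums of 759 to 1203 CPM in the controls and 1977, 1335 and 838 CPM in TO 2, 3 and 4. Ciliated cell markers were higher for 7 of 8, with sums of 179 to 201 CPM and 249, 225 and 169 CPM. None of these genes was called by edgeR. Fibroblast markers summed to 6608 to 7422 CPM in the controls and 6839 to 7637 in TO 2 to 4, endothelial markers to 1671 to 2078 and 1421 to 2040, red cell markers to 3041 to 4895 and 2864 to 4684, and nerve and glia markers to 17.2 to 30.2 and 29.6 to 30.6 CPM.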
